A study of Homo sapiens with 12 samples.

Results

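The constitutive proteasome subunit genes are all genes whose symbol is PSMA, PSMB, PSMC or PSMD followed by a number, without PSMB8, PSMB9 and PSMB10, the inducible catalytic subunits. Of 36 such genes, 33 were measured among 17958 genes in all, and PSMC5, PSMD7 and PSMD13 were not analysed here. The 33 are 16 genes of the core particle (8 of the PSMA alpha ring and 8 of the PSMB beta ring) and 17 with symbols of the regulatory particle. The latter hold 5 ATPases, 3 other subunits of the base, 6 subunits of the lid and 3 chaperones of base assembly that are not part of the finished particle (PSMD5, PSMD9 and PSMD10). The cells are BT549, a human triple-negative breast cancer line with mesenchymal features. Cells were held for 72 hours with a control siRNA or pooled siRNAs to c-Jun, part of the AP-1 transcription factor, before 6 hours of vehicle or of TNFα, the cytokine tumour necrosis factor. The 4 groups (control siRNA with vehicle, control siRNA with TNFα, c-Jun siRNA with vehicle, c-Jun siRNA with TNFα) hold 3 Affymetrix arrays each, so every group carries an siRNA, and it is not stated whether replicates were separate cultures. The p-values therefore measure the spread between these samples only. Values are on a log2 scale, and a difference of 1 is a doubling of the signal.

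The proteasome is the protease that degrades proteins tagged with ubiquitin. Its core particle is a barrel of outer alpha rings, which form the gate and the docking surface, and inner beta rings, which hold the protease sites of PSMB5, PSMB6 and PSMB7. The regulatory particle caps the barrel: its PSMC ATPases unfold the substrate and open the gate, its base and lid bind ubiquitin chains, and PSMD14 cuts them off. Subunit genes are known to be induced together by the transcription factor NFE2L1 when the proteasome is inhibited, and TNFα and interferon are known to induce PSMB8, PSMB9 and PSMB10, which replace the constitutive catalytic subunits.

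JUN, the siRNA target, had mean log2 values of 10.35 and 11.07 with control siRNA (vehicle, then TNFα) and 9.83 and 10.36 with c-Jun siRNA, so it was lower with its siRNA in both treatments. Array medians lay between 5.62 and 5.68, and precision is limited by having 3 arrays a group. All 5 mesenchymal markers had group means of at least 9.62. Among 4 luminal markers ESR1 and PGR stayed at or under 4.41, FOXA1 lay at 5.38 to 5.78 and ERBB2 at 8.71 to 8.88. Among 3 epithelial markers EPCAM lay at 4.06 to 4.48, CDH1 at 4.45 to 5.48 and KRT18 at 8.28 to 9.37. The 3 leukocyte and 2 endothelial markers were at or under 4.90. A number in the array names may be a plate position, which is an inference. It takes the values 5, 7 and 9, and TNFα and vehicle arrays with c-Jun siRNA share none of them. Between those groups, position and treatment cannot be told apart within a position. The name of replicate 3 of c-Jun siRNA with TNFα reads as a second run of replicate 1 of that group. Their values differed with an SD of 0.121, within the 0.119 to 0.142 of other replicate pairs. It was the smallest in its group, where the other pairs had 0.142 and 0.133. These SDs cannot tell a second run from a separate sample. Both arrays were kept, and results with them averaged are given below.

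**Figure D1:**
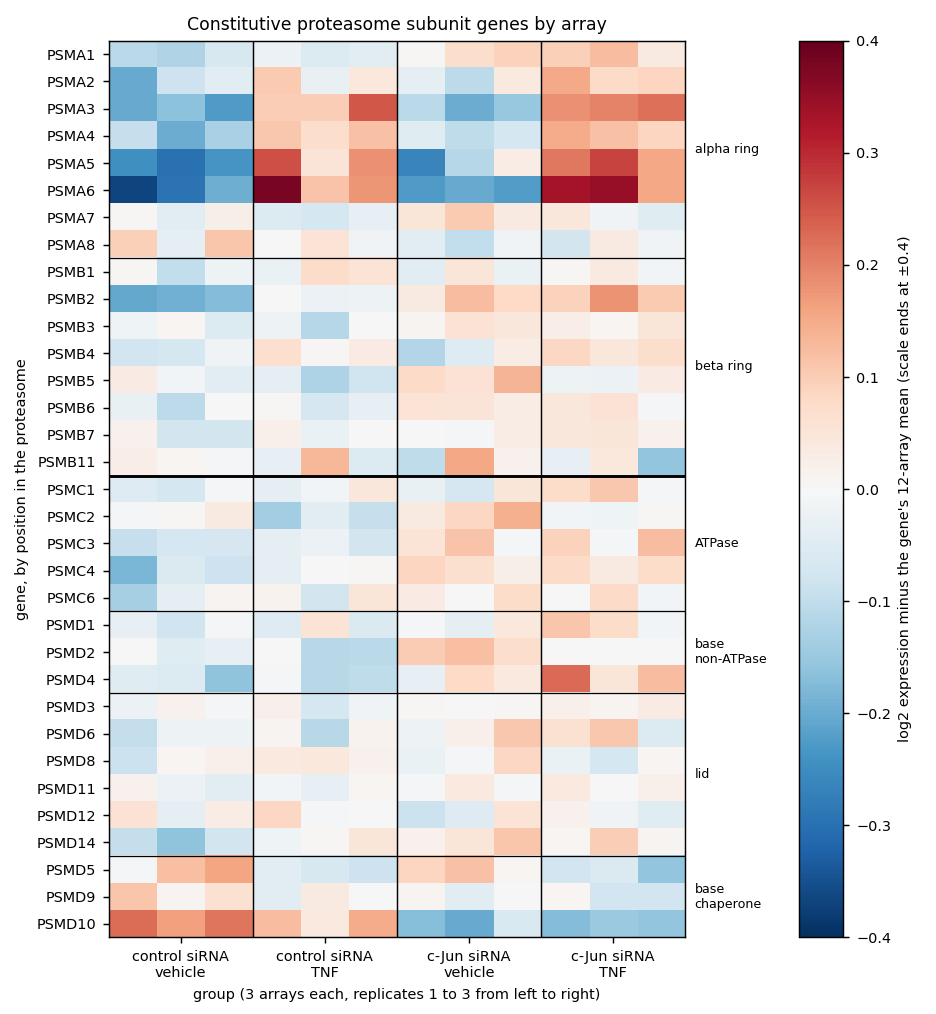
Deviation of each constitutive subunit gene from its own 12-array mean (colour, log2, scale ending at ±0.4) by array; columns are the 4 groups of 3 arrays and lines part the subunit classes. PSMA2 to PSMA6 are blue on most vehicle arrays and red on most TNFα arrays, PSMD10 is red with control siRNA and blue with c-Jun siRNA, and most other genes stay pale.

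TNFα with control siRNA went with higher signal of the alpha ring. Of its 8 genes, 5 rose (PSMA2 to PSMA6) and none fell, at a median of 0.19, while 1 of 8 beta ring genes rose (PSMB2), at a median of 0.027. Among the 17 genes of the regulatory group 2 rose and 2 fell, at a median of 0.013. Over all 33 genes 8 rose and 2 fell at a limma adjusted p under 0.05. For comparison, 35.7% of all 17958 genes passed, 13.8% higher and 21.9% lower, with a median of -0.023. The difference was above 0 for 69.7% of the 33 genes and for 43.1% of all genes. In bulk RNA, a change in the share of cells in some state and a change in the RNA per cell cannot be told apart.

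PSMA6, an alpha ring subunit, moved most. Its log2 values were 10.89, 10.96 and 11.06 on the 3 arrays with control siRNA and vehicle, and 11.63, 11.37 and 11.43 with TNFα. All TNFα arrays lay above all vehicle arrays, by a mean difference of 0.51 ± 0.060 (SE, 1.42-fold, limma adjusted p = 1.63e-06). PSMA5, also of the alpha ring, had 9.45, 9.39 and 9.45 with vehicle and 9.95, 9.74 and 9.87 with TNFα. Its groups did not overlap either, and the difference was 0.42 ± 0.061 (1.34-fold, adjusted p = 1.93e-05). PSMA3 read 10.24, 10.28 and 10.21 with vehicle and 10.54, 10.54 and 10.69 with TNFα, a separation of 0.35 ± 0.040 (1.27-fold, adjusted p = 1.3e-06). PSMA4 rose by 0.24 ± 0.033 (adjusted p = 1.08e-05) and PSMA2 by 0.15 ± 0.045 (adjusted p = 0.0144). The remaining alpha genes were not called: PSMA1 differed by 0.056, PSMA7 by -0.045 and PSMA8, the testis form of PSMA7, by -0.041. PSMA8 had a mean of 3.41, under the lower quartile of every array (4.03 to 4.08), as did PSMB11, the form of the thymus cortex (3.53). No expression is claimed for either.

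With c-Jun siRNA, TNFα moved the alpha ring by like amounts. Here 6 of the 33 genes rose and 4 fell, against 29.6% of all genes called (11.3% higher, 18.3% lower), and the rises were PSMA2 to PSMA6 and PSMB4. The medians were 0.16 for the alpha ring, 0.0032 for the beta ring and 0.0027 for the regulatory group, against -0.016 over all genes. This comparison shares no array with the one under control siRNA. With replicates 1 and 3 of its TNFα group averaged as possible runs of 1 sample, 5 of the 10 calls ended: PSMA2 (adjusted p = 0.0673), PSMB4 (0.0564), PSMB5 (0.0576), PSMC2 (0.0669) and PSMD2 (0.0664), at differences close to the full ones. PSMA6 stood at 11.03, 11.05 and 11.03 with vehicle and 11.59, 11.60 and 11.41 with TNFα. The arrays again did not overlap, with a difference of 0.50 ± 0.060 (1.41-fold, adjusted p = 2.91e-06). PSMA3 had 10.33, 10.24 and 10.29 with vehicle and 10.62, 10.64 and 10.66 with TNFα, a clear separation of 0.35 ± 0.040 (adjusted p = 1.26e-06). PSMA5 spread more widely among the vehicle arrays, from 9.43 to 9.72, and still lay below all TNFα arrays (9.84 to 9.96), by 0.33 ± 0.061 (adjusted p = 0.000372). PSMA4 rose by 0.19 ± 0.033 and PSMA2 by 0.14 ± 0.045. PSMB4, a beta ring subunit without a protease site, rose by 0.11 ± 0.035 (adjusted p = 0.0194), and with control siRNA its difference of 0.089 was not called (adjusted p = 0.0588).

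Leaving out single arrays ended the call of PSMA2 with control siRNA (without vehicle replicate 1, 0.10, adjusted p = 0.102; without TNFα replicate 1, 0.11, adjusted p = 0.0823) and with c-Jun siRNA (without vehicle replicate 1 or 2 or TNFα replicate 1, adjusted p 0.0684 to 0.132). That of PSMB4 ended without c-Jun siRNA vehicle replicate 1 or 2 or TNFα replicate 1 or 3 (adjusted p 0.0511 to 0.137). Within position number 7, which both control siRNA groups hold, PSMA6 differed by 0.48 (adjusted p = 0.000137), PSMA5 by 0.39, PSMA3 by 0.36, PSMA4 by 0.24 and PSMA2 by 0.15 (adjusted p = 0.0589). With position as a fixed block, the c-Jun siRNA differences were 0.59 for PSMA6 (adjusted p = 0.00146), 0.33 for PSMA3 (0.00861), 0.34 for PSMA5 (0.0895), 0.20 for PSMA4 (0.064) and 0.19 for PSMA2 (0.153), and the last 3 were not called.

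The stretches before the start sites of the alpha genes with the widest range over the 12 arrays, and of PSMD10, described below, are shown as the DNA around motif matches. They come from RefSeq on GRCh38.p14, each the 140 bases upstream of the annotated start, 5′ to 3′ on the gene's strand. The capitals mark matches, on either strand, to TGANNNNGC or to CCAAT (the NF-Y box), and overlapping matches run together. TGANNNNGC is a loose form of the core of the antioxidant response element, the site that NFE2L1 and NFE2L2 bind. A match to it is not taken as such a site. PSMA6 is at chr14:35292177-35292316 on the plus strand, PSMA3 at chr14:58244703-58244842 on the plus strand, PSMA5 at chr1:109426449-109426588 on the minus strand and PSMD10 at chrX:108091543-108091682 on the minus strand.
PSMA6: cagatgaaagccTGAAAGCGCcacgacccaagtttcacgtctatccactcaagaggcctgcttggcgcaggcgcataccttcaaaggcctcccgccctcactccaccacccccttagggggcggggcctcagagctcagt
PSMA3: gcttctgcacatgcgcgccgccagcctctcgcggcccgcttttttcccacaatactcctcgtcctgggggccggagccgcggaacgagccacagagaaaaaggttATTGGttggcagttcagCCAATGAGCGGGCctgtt
PSMA5: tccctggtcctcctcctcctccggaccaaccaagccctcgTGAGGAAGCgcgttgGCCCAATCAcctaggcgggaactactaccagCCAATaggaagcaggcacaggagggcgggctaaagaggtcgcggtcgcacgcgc
PSMD10: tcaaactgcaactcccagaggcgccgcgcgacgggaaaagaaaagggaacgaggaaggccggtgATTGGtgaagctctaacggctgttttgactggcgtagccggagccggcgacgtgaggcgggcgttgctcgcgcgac

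Both strands of the window from 250 bases before to 50 after the start were searched in the 28 members that have one (none was given for PSMA7, PSMB1, PSMB6, PSMB7 and PSMD4). A gene with several annotated starts, as 4 members had, was counted if any of its windows matched. TGANNNNGC was found for 67.9% of these 28 members and for 47.1% of all 27305 genes with a window. CCAAT was found in 53.6% against 39.7%, and GGAANNNCC, the core of the NF-kB site, in 39.3% against 23.5%. TGANTCA, the AP-1 site, which c-Jun binds, was found in 2 of 28 (7.14% against 9.37%), PSMD2 and PSMD9. By particle, TGANNNNGC was found for 10 of 12 core and 9 of 16 regulatory members. CCAAT was found for 8 and 7, GGAANNNCC for 3 and 8, and TGANTCA for 0 and 2. TGANNNNGC can overlap TGANTCA and CCAAT, so these counts are not separate. A match is only a run of letters, and none of these windows was measured for binding.

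PSMA6 lies next to NFKBIA on chromosome 14 in RefSeq's order of protein-coding genes. NFKBIA encodes the inhibitor of NF-kB, is itself a TNFα target, and rose by 3.10 with control siRNA and 1.82 with c-Jun siRNA. Of 66 neighbours of the members 59 were measured, and NFKBIA alone differed by more than 1 log2 unit with TNFα and control siRNA; the next highest reached 0.85 and the lowest was -0.86. PRORP, on the other side of PSMA6, differed by -0.37 and -0.053. Neighbours were looked up after these values were seen, and any part of position in the differences was not tested.

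The beta ring's protease subunits changed little with TNFα. PSMB5, the chymotrypsin-like subunit and main target of proteasome inhibitor drugs, had 11.26, 11.22 and 11.18 with control siRNA and vehicle and 11.19, 11.10 and 11.14 with TNFα. With c-Jun siRNA it had 11.30, 11.28 and 11.36 with vehicle and 11.21, 11.20 and 11.26 with TNFα. The control siRNA groups overlapped and the c-Jun siRNA groups did not: it differed by -0.074 (adjusted p = 0.096) and fell by 0.094 ± 0.033 (adjusted p = 0.04). PSMB6, the caspase-like subunit, had 12.14, 12.06 and 12.17 and, with TNFα, 12.17, 12.10 and 12.13 under control siRNA. Under c-Jun siRNA it had 12.22, 12.22 and 12.20 and 12.21, 12.23 and 12.16. The vehicle and TNFα arrays overlapped under both siRNAs, with differences of 0.011 (adjusted p = 0.848) and -0.013 (adjusted p = 0.819). PSMB7, the trypsin-like subunit, read 11.38, 11.29 and 11.29 with control siRNA and vehicle, and 11.39, 11.34 and 11.37 with TNFα. With c-Jun siRNA it read 11.37, 11.36 and 11.40 with vehicle and 11.41, 11.41 and 11.38 with TNFα. None of its pairwise differences was called (0.029 to 0.052), and its whole range over 12 arrays was 0.12, the narrowest of the core genes. Leaving out control siRNA TNFα replicate 3, or c-Jun siRNA vehicle replicate 1 or 3 or TNFα replicate 1 or 2, ended the call of PSMB5 (adjusted p 0.0526 to 0.176), as did centring arrays on their medians (-0.045, adjusted p = 0.319).

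The inducible counterparts moved far more on the same arrays. PSMB9, which replaces PSMB6, rose by 2.16 with TNFα and control siRNA, by 1.84 with c-Jun siRNA and vehicle, by 0.81 with c-Jun siRNA under TNFα and by 1.14 with TNFα under c-Jun siRNA. PSMB10, which replaces PSMB7, rose by 1.70, 0.56, 0.29 and 1.44 in the same order. PSMB8, which replaces PSMB5, rose by 1.38, 0.89, 0.36 and 0.85. All 3 were called in all 4 comparisons. The comparisons of TNFα with control siRNA and of c-Jun siRNA with vehicle share the control siRNA vehicle arrays.

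**Figure D2:**
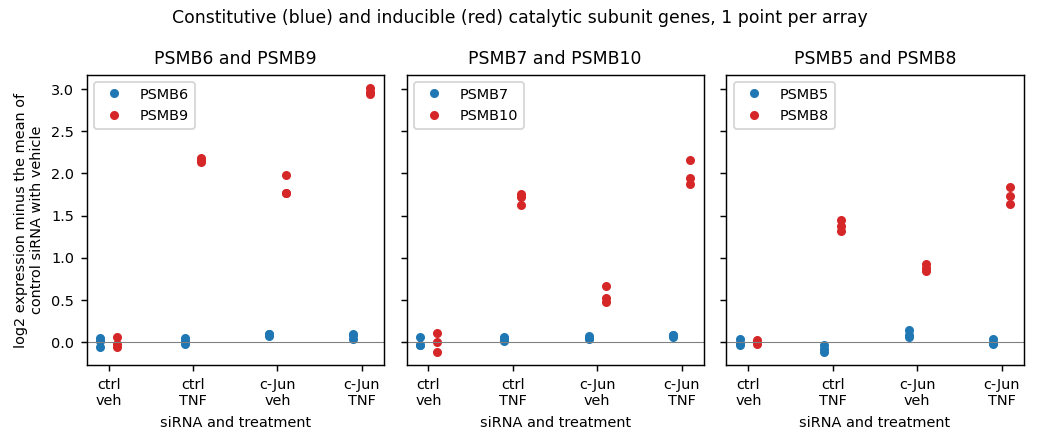
Log2 expression of each constitutive catalytic gene (blue) and its inducible counterpart (red) minus that gene's mean on the control siRNA vehicle arrays, by group, 1 point per array. The blue points stay close to 0 in all groups, while the red points of PSMB9, PSMB10 and PSMB8 lie above 0 in the other 3 groups.

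In the regulatory particle, TNFα went with small differences in both directions. PSMD5, a chaperone that holds the base before assembly, had 10.63, 10.76 and 10.80 with control siRNA and vehicle and 10.59, 10.57 and 10.56 with TNFα. With c-Jun siRNA it had 10.72, 10.75 and 10.65 with vehicle and 10.56, 10.58 and 10.48 with TNFα. All TNFα arrays lay below the vehicle arrays of the same siRNA, and it fell by 0.16 ± 0.042 (adjusted p = 0.00678) and by 0.17 ± 0.042 (adjusted p = 0.00443). PSMD14, the deubiquitinase of the lid, had 10.03, 9.97 and 10.06 with control siRNA and vehicle and 10.11, 10.13 and 10.18 with TNFα. It rose by 0.12 ± 0.038 (adjusted p = 0.0176) with no overlap, while with c-Jun siRNA the groups overlapped and it differed by -0.019 (adjusted p = 0.782). PSMD2, a docking subunit of the base for ubiquitin-like domains, had 11.11, 11.12 and 11.07 with c-Jun siRNA and vehicle and the same value, 11.004, on all 3 arrays with TNFα. It fell by 0.097 ± 0.033 (adjusted p = 0.032), and under control siRNA it differed by -0.047 (adjusted p = 0.31). Among the ATPases, PSMC2 fell under both siRNAs, by 0.10 ± 0.033 (adjusted p = 0.0212) and by 0.096 ± 0.033 (adjusted p = 0.0369), and PSMC4 rose with control siRNA by 0.095 ± 0.033 (adjusted p = 0.0288). The genes of ubiquitin binding and scaffolding in the base and lid, PSMD1, PSMD3, PSMD4, PSMD6, PSMD8, PSMD11 and PSMD12, were called in neither TNFα comparison.

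Several of these calls rest on single arrays or on the scale. With control siRNA, PSMD14 was no longer called without vehicle replicate 2 (0.097, adjusted p = 0.0928) or TNFα replicate 3 (0.10, adjusted p = 0.0842), PSMC4 without vehicle replicate 1 (0.058, adjusted p = 0.191) or TNFα replicate 2 or 3 (adjusted p = 0.079 and 0.0958), and PSMC2 without vehicle replicate 3 or TNFα replicate 1 or 3 (adjusted p 0.0562 to 0.109). With c-Jun siRNA, leaving out any of the 6 arrays but vehicle replicate 1 ended the call of PSMC2 (adjusted p 0.0603 to 0.18), and any but vehicle replicate 3 that of PSMD2 (adjusted p 0.0619 to 0.105); centring arrays on their medians ended both (adjusted p = 0.319 for PSMC2 and 0.299 for PSMD2). PSMD5 kept its calls in every fit with an array left out; within position number 7 it differed by -0.13 (adjusted p = 0.0819), and with position as a fixed block by -0.12 (adjusted p = 0.0807) and -0.056 (adjusted p = 0.755).

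The core and the regulatory particle were set against each other array by array, as the mean deviation of the 16 core genes from their 12-array means minus that of the 17 regulatory genes. With control siRNA and vehicle this was -0.060, -0.091 and -0.074, and with TNFα 0.061, 0.034 and 0.047. With c-Jun siRNA it was -0.051, -0.029 and -0.038 with vehicle and 0.058, 0.087 and 0.055 with TNFα. The 6 TNFα arrays all lay above 0 and the 6 vehicle arrays all below, for either siRNA. The core means differed more between the groups: -0.089, 0.031, -0.018 and 0.076 in the groups control siRNA vehicle, control siRNA TNFα, c-Jun siRNA vehicle and c-Jun siRNA TNFα, against -0.014, -0.016, 0.021 and 0.0095 for the regulatory group. Within the core the alpha ring ran -0.13, 0.074, -0.066 and 0.12, and the beta ring -0.048, -0.011, 0.029 and 0.031. The base chaperones, which the regulatory mean includes, went the other way, at 0.12, 0.013, -0.029 and -0.10. The ATPases ran -0.053, -0.031, 0.044 and 0.041, and the other base subunits -0.051, -0.055, 0.043 and 0.064. The lid ran -0.030, 0.0014, 0.016 and 0.012. Each of these classes of finished subunits was higher with c-Jun siRNA in both treatments. In the regulatory mean they and the base chaperones therefore partly cancel. That mean joins different genes: PSMD5 was called with TNFα alone, PSMD10 with c-Jun siRNA alone and PSMD9 in no pairwise comparison. Over the 12 arrays a core gene ranged by a median of 0.25, from 0.12 (PSMB7) to 0.75 (PSMA6), and a regulatory gene by 0.22, from 0.082 (PSMD11) to 0.43 (PSMD10). The median range of all genes was 0.39.

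**Figure D3:**
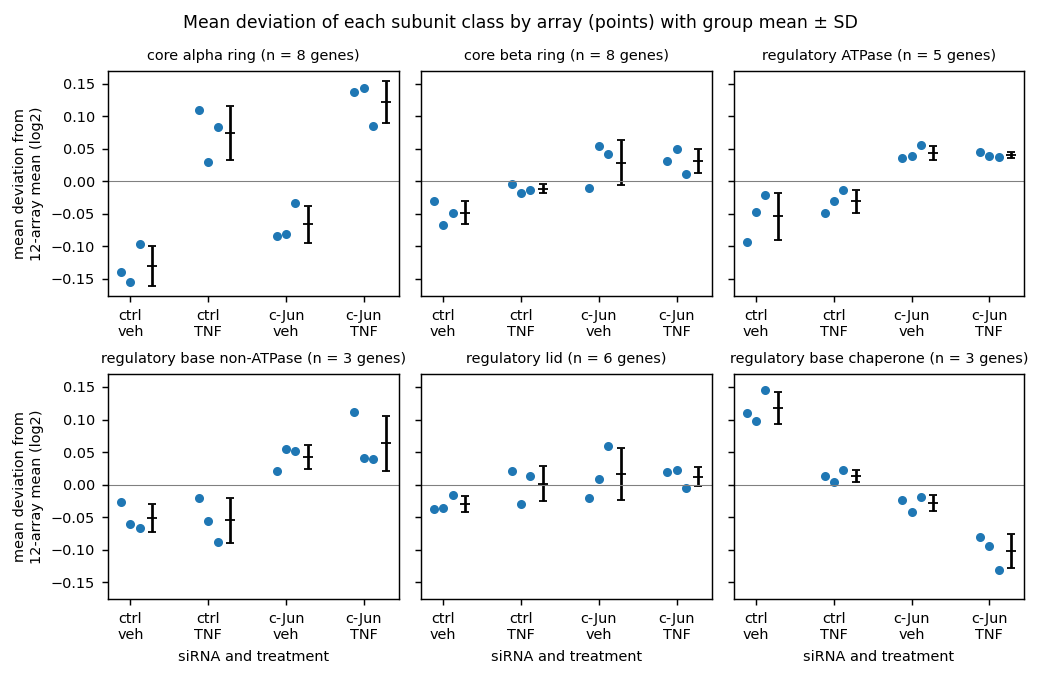
Mean deviation of each subunit class from the 12-array means of its genes (log2), 1 point per array, with the mean and SD of each group of 3 arrays beside the points. The alpha ring is above 0 on all 6 TNFα arrays and below 0 on all 6 vehicle arrays. The mean of the 3 base chaperones goes from 0.12 to -0.10 across the groups, with PSMD5 called for TNFα and PSMD10 for c-Jun siRNA.

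With the c-Jun siRNA a minority of the 33 genes was called. The share was near that of all genes with vehicle and smaller with TNFα. Shares of all genes include dim genes, which most members are not. With the dimmest 30% left out, larger shares passed: 5311 of 12570 genes with vehicle and 5233 with TNFα. For TNFα against vehicle these counts were 6438 with control siRNA and 5449 with c-Jun siRNA. Most of the members' calls with c-Jun siRNA were rises. With vehicle, 8 rose and 1 fell (27.3% called), with 4 rises in each particle, against 28.9% of all genes called (14.4% higher, 14.5% lower). The median was 0.067 for the core and 0.040 for the regulatory group, against -0.0073 over all genes, and 84.8% of the 33 differences were above 0, against 47.4% of all genes. With TNFα, 4 rose and 1 fell (15.2% called), against 28.5% of all genes called (14.1% higher, 14.4% lower), with medians of 0.051 and 0.043 against 0.0011 over all genes. The differences were above 0 for 75.8% of the 33 genes and 50.3% of all genes. PSMA1, PSMB2 and PSMC3 rose and PSMD10 fell in both treatments; these 2 comparisons share no array. Markers of cell state moved in the same comparisons. With vehicle all 5 mesenchymal markers fell (VIM, FN1, CDH2, ZEB1 and EGFR, by 0.11 to 0.45), and with TNFα 2 of 5 fell (FN1 and EGFR). Of 3 epithelial markers CDH1 rose by 0.55 and 0.95 and KRT18 by 0.77 and 0.72 (vehicle, then TNFα), and EPCAM was not called. The log2 of the summed epithelial signal lay at 8.66 to 8.86 and 9.37 to 9.56 with vehicle (control, then c-Jun siRNA), and at 8.35 to 8.70 and 9.11 to 9.26 with TNFα. That of the mesenchymal list lay at 13.65 to 13.68 and 13.43 to 13.47 with vehicle, and at 13.76 to 13.80 and 13.56 to 13.63 with TNFα. Markers also moved with TNFα and control siRNA. EGFR (0.71) and FN1 (0.36) were higher, and ZEB1 (-0.38), CDH2 (-0.14), KRT18 (-0.32) and FOXA1 (-0.39) lower. VIM, CDH1, EPCAM, ESR1, PGR and ERBB2 were not called. With TNFα under c-Jun siRNA 3 of 5 mesenchymal markers rose and 1 fell. The part of these markers in the subunit differences was not tested, for TNFα or for c-Jun siRNA.

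PSMB2, a beta ring subunit without a protease site, had 11.53, 11.54 and 11.56 with control siRNA and vehicle and 11.77, 11.86 and 11.81 with c-Jun siRNA. Under TNFα it had 11.73, 11.71 and 11.71 with control siRNA and 11.83, 11.91 and 11.84 with c-Jun siRNA. The siRNA groups overlapped in neither treatment, and the control siRNA vehicle arrays were the lowest of all 12. PSMB2 was higher with c-Jun siRNA by 0.27 ± 0.030 with vehicle (1.21-fold, adjusted p = 1.48e-06) and by 0.14 ± 0.030 with TNFα (adjusted p = 0.00142). It also rose with TNFα and control siRNA, by 0.17 ± 0.030 (adjusted p = 0.000147), a comparison that shares its vehicle arrays with that of c-Jun siRNA. With TNFα under c-Jun siRNA it differed by 0.046 (adjusted p = 0.305). PSMA1, of the alpha ring, had 10.68, 10.66 and 10.72 with control siRNA and vehicle and 10.79, 10.85 and 10.88 with c-Jun siRNA. Under TNFα it had 10.76, 10.73 and 10.74 with control siRNA and 10.88, 10.91 and 10.82 with c-Jun siRNA. All c-Jun siRNA arrays lay above all control siRNA arrays, by 0.15 ± 0.033 (adjusted p = 0.00151) and 0.13 ± 0.033 (adjusted p = 0.00741). PSMB5 and PSMB6, whose arrays are given above, rose with c-Jun siRNA and vehicle by 0.098 ± 0.033 (adjusted p = 0.0336) and 0.088 ± 0.031 (adjusted p = 0.0409), and were not called with TNFα (0.078 and 0.064).

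PSMD10 (gankyrin), a base chaperone also known as an oncoprotein that binds the RB1 pathway and MDM2, moved furthest in the other direction. It had 11.35, 11.29 and 11.34 with control siRNA and vehicle and 10.95, 10.92 and 11.06 with c-Jun siRNA. Under TNFα it had 11.25, 11.16 and 11.27 with control siRNA and 10.95, 10.98 and 10.97 with c-Jun siRNA. The siRNA groups stood apart in both treatments, with c-Jun siRNA lower: it fell by 0.35 ± 0.038 (0.787 of control, adjusted p = 9.83e-07) and by 0.26 ± 0.038 (0.833 of control, adjusted p = 2.53e-05). PSMD14 had 10.15, 10.18 and 10.24 with c-Jun siRNA and vehicle, above the control siRNA arrays given earlier, and rose by 0.17 ± 0.038 (adjusted p = 0.00223). PSMD4, a ubiquitin receptor of the base, had 7.13, 7.02 and 7.03 with control siRNA and TNFα and 7.36, 7.18 and 7.26 with c-Jun siRNA. It rose by 0.21 ± 0.064 (adjusted p = 0.0202) on this probe set, and on its dimmer probe set it differed by -0.023 (adjusted p = 0.901), so the probe sets disagree. PSMC4 and PSMD2 rose with vehicle by 0.17 and 0.12, and PSMC3 by 0.13 with vehicle and 0.11 with TNFα.

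Among these calls, PSMB2 and PSMD10 kept theirs with each array left out in both treatments, and PSMA1 likewise. PSMB5 lost its call with vehicle without control siRNA vehicle replicate 2 or 3 or c-Jun siRNA vehicle replicate 1 or 3 (adjusted p 0.0595 to 0.153). PSMB6 lost its call without any 1 of 6 arrays: control siRNA vehicle replicate 1 or 2, control siRNA TNFα replicate 3, and each c-Jun siRNA vehicle array (adjusted p 0.0543 to 0.221). PSMC3 lost its call with vehicle without control siRNA vehicle replicate 1 or c-Jun siRNA vehicle replicate 1 or 2 (adjusted p 0.0509 to 0.0973), and with TNFα in 6 such fits (adjusted p 0.0507 to 0.173), without each control siRNA TNFα array, c-Jun siRNA vehicle replicate 1 and c-Jun siRNA TNFα replicates 1 and 3. PSMD4 lost its call without control siRNA TNFα replicate 2 or 3 or c-Jun siRNA TNFα replicate 1 (adjusted p 0.0704 to 0.104). With the possible second run averaged, PSMC3 and PSMD4 were not called under TNFα (0.095, adjusted p = 0.136, and 0.18, adjusted p = 0.0636).

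Each position number that holds both siRNAs has a single array on 1 side, so differences within it are given as values and decide no call. Within number 5 (1 control siRNA and 3 c-Jun siRNA arrays with vehicle) PSMB2 differed by 0.25, PSMD10 by -0.36, PSMA1 by 0.12, PSMB5 by 0.13, PSMB6 by 0.043, PSMC3 by 0.12, PSMC4 by 0.14, PSMD2 by 0.13 and PSMD14 by 0.13. All 9 kept their sign, and PSMB6 was the one that shrank most. Under TNFα PSMB2 differed by 0.20 and PSMD10 by -0.24 within number 7 (2 control siRNA arrays and 1 c-Jun siRNA array). Within number 9 (1 control siRNA array, and 2 c-Jun siRNA arrays that are the possible runs of the same sample) they differed by 0.10 and -0.29. With position as a fixed block, both stayed called under TNFα, PSMB2 at 0.15 (adjusted p = 0.00221) and PSMD10 at -0.27 (adjusted p = 0.000141). PSMA1 also stayed called under TNFα, while PSMC3 and PSMD4 did not. With vehicle the fixed block kept the calls of PSMB2, PSMB5 and PSMD10, and those of PSMA1, PSMB6, PSMC3, PSMC4, PSMD2 and PSMD14 ended. With vehicle, only 1 control siRNA array shares a number with c-Jun siRNA arrays.

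**Figure D4:**
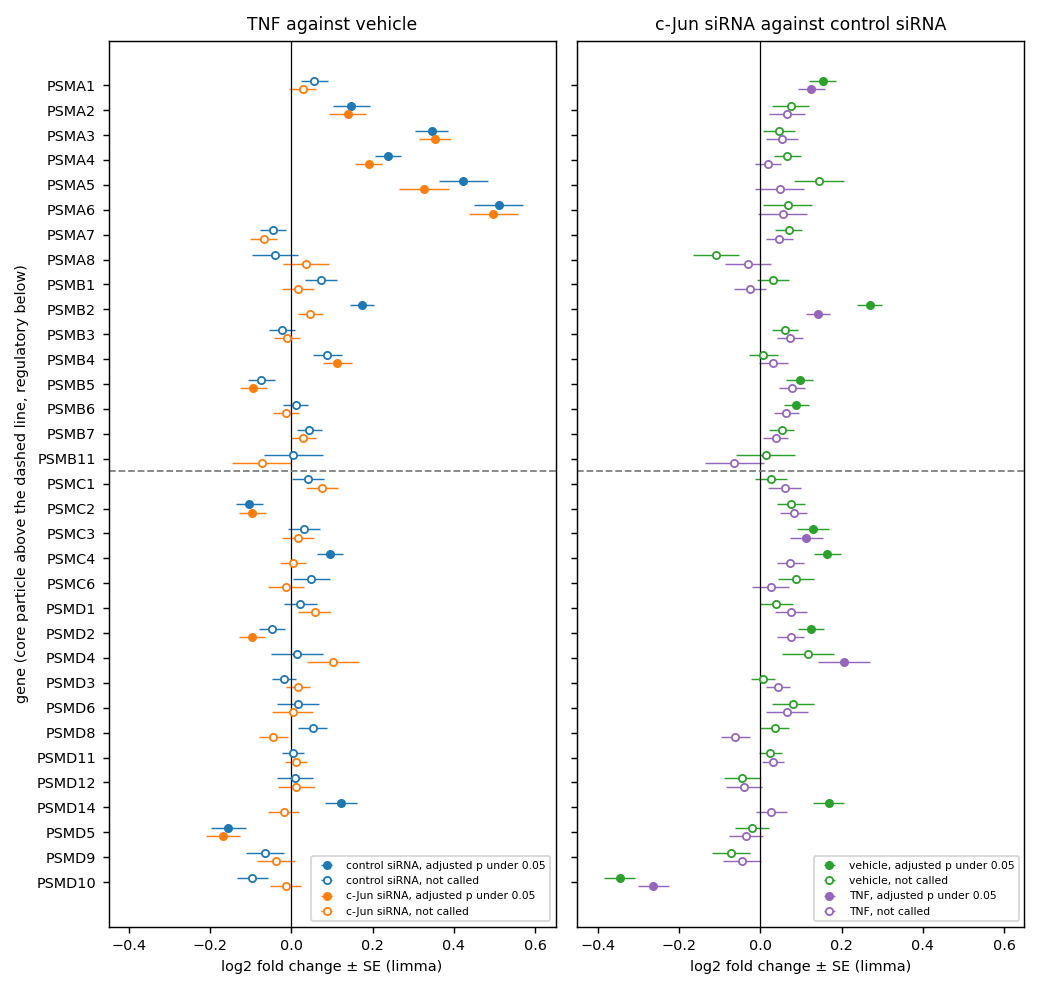
Log2 fold change with its SE (limma, 3 arrays per group) of each constitutive subunit gene for TNFα against vehicle (left) and c-Jun siRNA against control siRNA (right); filled points have an adjusted p under 0.05. PSMA2 to PSMA6 lie to the right of 0 for TNFα under both siRNAs, and PSMD10 lies to the left of 0 for c-Jun siRNA in both treatments, at -0.35 and -0.26.

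Whether the TNFα response differed between the siRNAs was tested as an interaction, the response with c-Jun siRNA minus that with control siRNA. None of the 33 genes was called, against 5.47% of all genes (1.88% higher, 3.59% lower). At an unadjusted p under 0.05 limma gave 2 genes, PSMB2 (-0.13 ± 0.043, adjusted p = 0.107) and PSMD14 (-0.14 ± 0.054, adjusted p = 0.172). PSMB2 was called without c-Jun siRNA TNFα replicate 2 (-0.15, adjusted p = 0.0363). For PSMA6 the difference between responses was -0.013 ± 0.085, for PSMA5 -0.096 ± 0.087, for PSMA3 0.0080 ± 0.057 and for PSMD10 0.082 ± 0.053. Over the 33 genes it ran from -0.14 to 0.090 with SEs of 0.039 to 0.10, so smaller differences could not be seen with these arrays. The genes called in none of the 4 pairwise comparisons numbered 15: PSMA7, PSMA8, PSMB1, PSMB3, PSMB7, PSMB11, PSMC1, PSMC6, PSMD1, PSMD3, PSMD6, PSMD8, PSMD9, PSMD11 and PSMD12.

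Other genes of the pathway were taken from lists, and their counts stand beside the shares of all genes called: 35.7% for TNFα with control siRNA, 29.6% for TNFα with c-Jun siRNA, 28.9% for c-Jun siRNA with vehicle and 28.5% for c-Jun siRNA with TNFα. Of 5 activators and inhibitors that cap the core, 3 rose with TNFα and control siRNA: PSME2 by 0.86 and PSME1 by 0.31, which form the interferon-induced activator, and PSME3 by 0.23, the nuclear one. With c-Jun siRNA and vehicle the same 3 rose, by 0.55, 0.14 and 0.21. With TNFα under c-Jun siRNA PSME2 and PSME1 rose (0.47 and 0.27), and with c-Jun siRNA under TNFα PSME1 alone (0.10). Of 5 core assembly chaperones none was called with TNFα and control siRNA, while PSMG1 rose with c-Jun siRNA in both treatments (0.23 and 0.19). PSMG2 fell by 0.10 with c-Jun siRNA and vehicle and rose by 0.12 with TNFα under c-Jun siRNA.

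Of 13 bound proteins and ubiquitin shuttles 2 rose and 3 fell with TNFα and control siRNA, 38.5% against 35.7% of all genes called. PAAF1, which binds the ATPases and holds the particles apart, fell by 0.57, UCHL5, a deubiquitinase of the base, fell by 0.28, and the shuttle UBQLN2 rose by 0.28. With TNFα under c-Jun siRNA UBQLN2 rose by 0.26 and UCHL5 fell by 0.12, the 2 calls of that comparison. With c-Jun siRNA and vehicle 2 rose and 2 fell, among them UBQLN2 (-0.16), ECPAS (0.15) and UCHL5 (0.13), and under TNFα 3 rose and 1 fell, among them PAAF1 (0.53), UCHL5 (0.28) and UBQLN2 (-0.18). Of 3 genes of ubiquitin and its activating enzymes none was called in either TNFα comparison; UBB rose by 0.13 with c-Jun siRNA and vehicle, and under TNFα UBA6 rose by 0.11 and UBA1 fell by 0.082.

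Of 11 transcription factors and their regulators 5 rose and 4 fell with TNFα and control siRNA, against 13.8% of all genes higher and 21.9% lower. NFE2L3, a relative of NFE2L1, rose by 3.08 from a mean of 6.89, NFE2L2, the oxidative stress factor, rose by 0.76, and FOXO4 fell by 0.32. NFE2L1 rose with TNFα under both siRNAs, by 0.24 with the control and by 0.25 with the c-Jun siRNA. With TNFα under c-Jun siRNA 6 rose and none fell (29.6% of all genes called), NFE2L3 by 1.87 and NFE2L2 by 0.61. With c-Jun siRNA and vehicle 2 rose and 4 fell (28.9% of all genes called): NFE2L3 rose by 1.31, FOXO4 fell by 0.27, and NGLY1, the enzyme that processes NFE2L1, rose by 0.18. Under TNFα 1 rose and 3 fell (28.5% of all genes called), with NGLY1 at 0.24 and NFE2L1 and NFYA each at -0.15. The part of these factors in the subunit values was not tested.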

How the data were processed

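Total RNA of 12 BT549 samples was hybridised to Affymetrix human gene arrays, and groups and replicate numbers came from the sample labels. The authors deposited values that are used here as log2 expression. Base 2 was inferred, since values ran from 2.27 to 14.0. The submitters' processing notes name Affymetrix Expression Console 1.1 and PLIER without a role. They were not normalised again: quartiles differed between arrays by at most 0.061. Genes came from the 19181 of 33297 probe sets with 1 symbol in the platform annotation (2055 had several, 12061 none), taking the highest 12-array mean per gene. PSMC1, PSMC6 and PSMD4 had more than 1 such probe set. For TNFα with control siRNA those of PSMC6 differed by 0.049 (used here) and -0.045, and neither was called. No filter on low values was used, so all 33 members entered. RefSeq lists 41 pseudogenes of 18 members, whose transcripts probes could also bind.

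limma 3.58.1 (R 4.3.3) fitted group means on the 12 arrays (8 residual degrees of freedom, mean-variance trend). Tests were two-sided, with Benjamini-Hochberg adjustment over 17958 genes and calls at an adjusted p under 0.05, and the script was checked on simulated data. Counts and medians of members are descriptions beside those of all genes. Members in a class are not replicates. Array-by-array values are given for PSMB5, PSMB6, PSMB7 and, per pairwise comparison, up to 2 called core and 2 called regulatory genes of largest difference; up to 3 called genes per pathway list are named. Neighbouring genes and the chosen members were looked at with earlier results of these data known, as were the gene lists. Replicate numbers did not pair the samples. Alternatives covered scaling, filters, probe sets, variance model, threshold, replicate block, position number, the possible second run and each array left out. Python 3.11.15, pandas 2.3.3 and matplotlib 3.10.9 were used.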

Additional observations from a re-analysis of the deposited data

Results flagged for a closer look

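None of the 33 constitutive subunit genes had a response to TNFα that passed the test of a difference between siRNAs, but 6 genes of the pathway lists or the siRNA target did, each with a smaller rise under c-Jun siRNA (limma interaction, response with c-Jun siRNA minus response with control siRNA). PSMB9 had an interaction of -1.03 (adjusted p = 1.54e-07) and PSMB8 one of -0.53 (adjusted p = 0.000575). The activator genes PSME2 and PSME3 had -0.39 (adjusted p = 0.00564) and -0.17 (adjusted p = 0.0201). NFE2L3 had -1.21 (adjusted p = 5e-07), and JUN itself -0.19 (adjusted p = 0.0173). With vehicle, c-Jun siRNA means lay above control siRNA means for PSMB9 (8.35 against 6.52), PSMB8 (7.35 against 6.47) and NFE2L3 (8.19 against 6.89). The same held for PSME2 (11.10 against 10.55) and PSME3 (11.60 against 11.39), while JUN lay lower (9.83 against 10.35). Under TNFα PSMB9 and PSMB8 were still higher with c-Jun siRNA, at 9.49 against 8.68 and 8.20 against 7.85. PSMB10, the remaining inducible subunit, had -0.27 and was not called (adjusted p = 0.192). Groups of 3 arrays are too small for a test of outlying samples.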

How the results depend on the processing

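Of 34 member calls 9 kept their side of the threshold under every alternative that could be fitted, those with 1 array in a group included: PSMA3, PSMA4, PSMA5, PSMA6 and PSMB2 for TNFα with control siRNA, PSMB2 and PSMD10 for c-Jun siRNA with vehicle, and PSMA3 and PSMA6 for TNFα with c-Jun siRNA. The other 25 ended under at least 1, none turned its direction, and 11 of 131 results not called were called under some alternative. The replicate block changed counts little (11, 8, 4, 10 and 0 against 10, 9, 5, 10 and 0 for TNFα with control siRNA, c-Jun siRNA with vehicle, c-Jun siRNA with TNFα, TNFα with c-Jun siRNA and the interaction); same-numbered arrays correlated in their deviations at -0.0586 to 0.0884, and 4 of 12 were closest to their own number.

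Centring arrays on their medians gave core and regulatory medians of 0.093 and 0.042 for TNFα with control siRNA and 0.082 and 0.051 for TNFα with c-Jun siRNA, where 8 genes were then higher and 1 lower in place of 6 and 4. It gave 9 calls and a regulatory median of 0.061 for c-Jun siRNA with TNFα, and a regulatory median of 0.024 for the interaction. Quantile normalisation gave 0.028 for the regulatory genes with c-Jun siRNA and TNFα. Without the mean-variance trend the TNFα comparisons called 6 and 5 members. At an adjusted p under 0.01 they called 6 and 5, and c-Jun siRNA with TNFα 3. Position as a fixed block left 3 calls for c-Jun siRNA in either treatment (regulatory median 0.024 with vehicle) and 2 for TNFα with c-Jun siRNA (core median 0.089). Within position number 7 (2 arrays a group) the regulatory median was -0.011 for TNFα with control siRNA. The other fits within a number have 1 array in a group, assumed to vary like the rest, so their counts say nothing about stability: c-Jun siRNA with vehicle had 2 calls and a regulatory median of 0.024, and c-Jun siRNA with TNFα had 0 calls within number 7 and 0 within number 9 (medians 0.015 core and 0.0065 regulatory). With the possible second run averaged, c-Jun siRNA with TNFα had 3 calls and TNFα with c-Jun siRNA 5. The causes were not tested.

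With single arrays left out, calls ran from 8 to 12, 7 to 9, 3 to 5, 5 to 10 and 0 to 1 in the order above. Core medians ran from 0.027 to 0.065 for c-Jun siRNA with TNFα, 0.015 to 0.046 for TNFα with c-Jun siRNA and -0.043 to -0.0037 for the interaction. Regulatory medians ran from -0.0030 to 0.021, 0.032 to 0.058, 0.023 to 0.052, -0.020 to 0.0053 and -0.016 to 0.022. Signal near background limits PSMA8 and PSMB11.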
